A study of Mus musculus with 8 samples.

Results

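The genes described here encode the signalling subunits of the B cell receptor, the kinases and the adaptor that act first after the receptor binds antigen, and a pair of inhibitory receptors of the B cell surface. They are Cd79a, Cd79b, Lyn, Blk, Syk, Btk, Blnk, Cd22 and Cd72. The genes were chosen by symbol, through the mouse gene annotation GENCODE M21 on the genome build GRCm38, and all 9 were found among the 51826 gene identifiers of the count table. All 9 also passed the filter on low counts, which kept 16484 genes for testing.

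Transcripts were sequenced from the mixed cells of the spleen (total splenocytes) of Balb/c mice that had reached 3 months of age. The 4 mice of the tRA group were given all-trans-retinoic acid (tRA), a vitamin A metabolite that acts through nuclear retinoic acid receptors, by mouth each day from weaning at 1 mg per kg body weight. The 4 control mice were dosed with vehicle, canola oil, and none of the 8 mice was injected with pristane, the oil used in the wider study to induce lupus. The groups follow the sample titles, since the treatment note is worded alike for all 8 samples. Library totals were 30919272 to 37539631 counts in the control group and 31810417 to 35165876 counts in the tRA group, and no member had fewer than 4627 counts in any mouse.

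The B cell receptor is a surface immunoglobulin that has almost no cytoplasmic part and signals through the paired chains CD79A and CD79B. After antigen binding, Src family kinases such as LYN and BLK phosphorylate tyrosine motifs in these chains, SYK docks there and phosphorylates the adaptor BLNK, and BTK is brought to BLNK to activate phospholipase C gamma. LYN also phosphorylates inhibitory motifs in CD22 and CD72, which recruit the phosphatase SHP-1 and dampen the signal. In the spleen, B cells are among the most frequent cells, so transcripts of the receptor complex are abundant in total splenocytes.

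The comparison asked whether daily tRA altered the splenocyte level of these transcripts before any disease was induced. With edgeR, 0 of the 9 members passed a false discovery rate (FDR) under 0.1, and 0 of the 16484 genes tested did so (0%). At an unadjusted p under 0.05, edgeR called 0 of the 9 members and 1070 of all genes (6.49%). DESeq2 called 0 of the 9 members and 27 of 13625 genes with an adjusted p-value (0.198%). No member had all tRA mice above or all tRA mice below the control mice. Over all genes tested, 315 (1.91%) lay higher and 269 (1.63%) lay lower in the tRA group without overlap. With shares this low, a count of 0 among 9 genes does not set the members apart from other genes.

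The fitted differences were small. Of the 9 log2 fold changes, 4 were positive and 5 were negative, and their median was -0.006 beside a median of 0.0014 over all genes tested. The median of the members turned positive, to 0.022 with library size alone, 0.051 without control mouse 1 and 0.0095 without tRA mouse 3. The median absolute log2 fold change was 0.071 for the members and 0.11 for all genes. The members had at least 4627 counts in every mouse, while the genes tested include ones with far fewer counts. These medians thus compare genes of unlike abundance and do not show that the members differed less than other genes. The 95% intervals of the members lay between -0.32 and 0.27 on the log2 scale, that is between a fold of 0.799 and a fold of 1.21. These are bulk samples, in which fewer B cells and less RNA per B cell cannot be told apart.

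**Figure D1:**
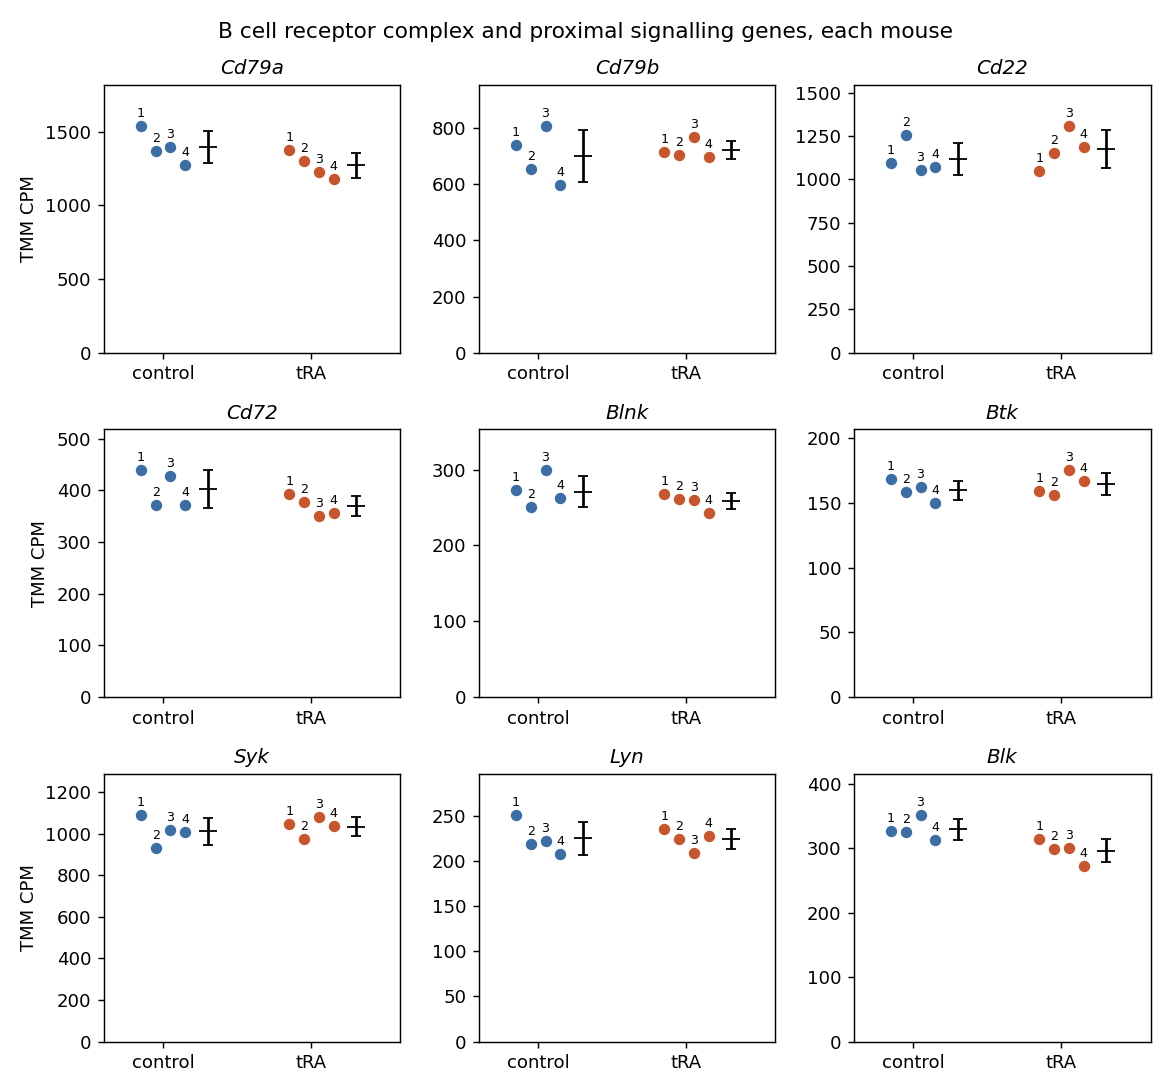
Level of each of the 9 genes as counts scaled by library size and TMM (TMM CPM, vertical axes from 0) in the 4 control mice and the 4 tRA mice. Points are mice, numbered by replicate, and bars give the mean ± SD of each group (n = 4). The groups overlapped for all 9 genes, and for Blk the overlap rested on tRA mouse 1 and control mouse 4.

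Cd79a encodes the alpha chain of the signalling pair. Its level and those that follow are in TMM CPM, counts scaled by library size and a factor for library composition. The gene (ENSMUSG00000003379) lies on the plus strand at chr7:24897381-24902197. Its level was 1540, 1370, 1399 and 1273 TMM CPM in control mice 1 to 4 and 1377, 1302, 1227 and 1179 TMM CPM in tRA mice 1 to 4. Control mouse 1 stood highest and tRA mice 3 and 4 stood below every control mouse, while tRA mice 1 and 2 lay within the control range. The group means were 1396 ± 110 and 1271 ± 86.9 TMM CPM (SD, n = 4). The log2 fold change of tRA over control was -0.13 with a standard error (SE) of 0.086, and the edgeR adjusted p was 0.793. It was -0.052 with the length and GC offset, -0.084 without control mouse 1 and -0.06 without tRA mice 3 and 4. The exact two-sided permutation test over the 70 ways to assign 4 of 8 mice gave p = 0.171, where the smallest possible p is 0.0286.

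Cd79b encodes the beta chain, which is held to CD79A by a disulphide bond. The gene lies on the minus strand at chr11:106311341-106314762 (ENSMUSG00000040592). The control mice had 739, 655, 809 and 598 TMM CPM and the tRA mice had 717, 704, 770 and 699 TMM CPM. The highest and the lowest mouse were both controls, and the 4 tRA mice lay inside the control range. The mean was 700 ± 92.4 TMM CPM in the control group and 723 ± 32.4 TMM CPM in the tRA group (SD, n = 4). The log2 fold change was 0.045 (SE 0.096, edgeR adjusted p = 0.938), and it was 0.13 with the length and GC offset and -0.023 without control mouse 4.

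The ratio of Cd79a to Cd79b, each per kb of merged exon length, was taken after the values of both genes had been seen and was not tested. It was 2.05, 2.05, 1.70 and 2.09 in the control mice and 1.89, 1.82, 1.56 and 1.66 in the tRA mice. In tRA mice 3 and 4 the ratio was below that of every control mouse, and control mouse 3 was low for its group. The log2 ratio averaged 0.98 ± 0.14 in control mice and 0.79 ± 0.12 in tRA mice (SD, n = 4), and the groups overlapped.

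Blk encodes a Src family kinase found mainly in the B lineage. The gene lies on the minus strand at chr14:63372836-63417037 (ENSMUSG00000014453). Blk measured 327, 325, 352 and 313 TMM CPM in the control mice and 314, 299, 300 and 272 TMM CPM in the tRA mice. Of the 4 tRA mice, 3 were below all control mice, and tRA mouse 1 was level with control mouse 4. Its log2 fold change of -0.15 was the largest in size among the members, with a 95% interval from -0.31 to 0.003. The difference did not pass the threshold (edgeR adjusted p = 0.761), and the exact permutation test gave p = 0.0571 (n = 4 a group). Blk was not the largest in every fit. With the length and GC offset Cd79b was larger in size, at 0.13 against -0.11 for Blk. Without control mouse 4 Cd79a was larger in size, at -0.18 against -0.17 for Blk.

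Lyn encodes the Src family kinase that serves both the activating and the inhibitory arm. It lies on the plus strand at chr4:3678115-3813122 (ENSMUSG00000042228), and its exons overlap those of Gm26857 on the opposite strand. Lyn stood at 251, 219, 222 and 208 TMM CPM in control mice and at 235, 224, 209 and 228 TMM CPM in tRA mice. The tRA values all fell between the lowest and the highest control value. The log2 fold change was -0.006 (SE 0.073, edgeR adjusted p = 0.991), and its sign was positive, at 0.022, when library size alone was used for scaling.

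Syk encodes the tyrosine kinase that binds the phosphorylated CD79 chains, and it is also used by Fc receptors of myeloid cells. The gene lies on the plus strand at chr13:52583173-52648792 (ENSMUSG00000021457). Its level was 1090, 930, 1015 and 1008 TMM CPM in the control mice against 1047, 972, 1079 and 1036 TMM CPM in the tRA mice. The highest and the lowest mouse were again controls. The difference in log2 was 0.032 (SE 0.076, edgeR adjusted p = 0.948), with a value of -0.0062 without control mouse 2.

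Btk encodes the Tec family kinase whose loss of function causes X-linked immunodeficiency. The gene is on the minus strand at chrX:134542336-134583570 (ENSMUSG00000031264). It measured 168, 158, 162 and 150 TMM CPM in the control mice and 159, 156, 175 and 167 TMM CPM in the tRA mice. The mouse with the highest level was tRA mouse 3 and the mouse with the lowest was control mouse 4. On the log2 scale the tRA group differed by 0.043 (SE 0.064, edgeR adjusted p = 0.901), or by 0.01 without tRA mouse 3 and 0.014 without control mouse 4.

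Blnk encodes the adaptor that joins SYK to BTK and phospholipase C gamma. The gene is on the minus strand at chr19:40928927-40994535 (ENSMUSG00000061132). The control mice had 273, 250, 299 and 262 TMM CPM, and the tRA mice had 268, 261, 260 and 243 TMM CPM. Control mouse 3 stood highest and tRA mouse 4 lowest, with the other 6 mice close together between them. The log2 fold change was -0.071 (SE 0.072, edgeR adjusted p = 0.86), or -0.041 with library size alone, -0.027 without control mouse 3 and -0.043 without tRA mouse 4.

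Cd22 encodes a sialic acid binding receptor of the B cell surface that inhibits the receptor signal. It lies on the minus strand at chr7:30865402-30880342 (ENSMUSG00000030577) and overlaps exons of the antisense gene Gm29439. Cd22 measured 1094, 1255, 1052 and 1070 TMM CPM in control mice and 1047, 1153, 1309 and 1188 TMM CPM in tRA mice. The highest and the lowest value both came from the tRA group, from mice 3 and 1. The log2 fold change was 0.071 (SE 0.092, edgeR adjusted p = 0.885), or 0.013 without tRA mouse 3, 0.036 without control mouse 3 and 0.13 without control mouse 2.

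Cd72 encodes a C-type lectin like receptor with an inhibitory tyrosine motif. It lies on the minus strand at chr4:43446462-43454628 (ENSMUSG00000028459), where its exons overlap those of Tesk1 on the opposite strand. Levels were 439, 371, 428 and 372 TMM CPM in the control mice and 394, 377, 351 and 356 TMM CPM in the tRA mice. Control mice 1 and 3 were above every tRA mouse, and tRA mice 3 and 4 were below every control mouse. Its log2 fold change was -0.12 (SE 0.080, edgeR adjusted p = 0.793), or -0.071 with the length and GC offset and -0.08 without control mouse 1. Use of strand in counting was not stated, so reads of Cd22, Cd72 and Lyn and of their opposite-strand neighbours may not be separated.

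**Figure D2:**
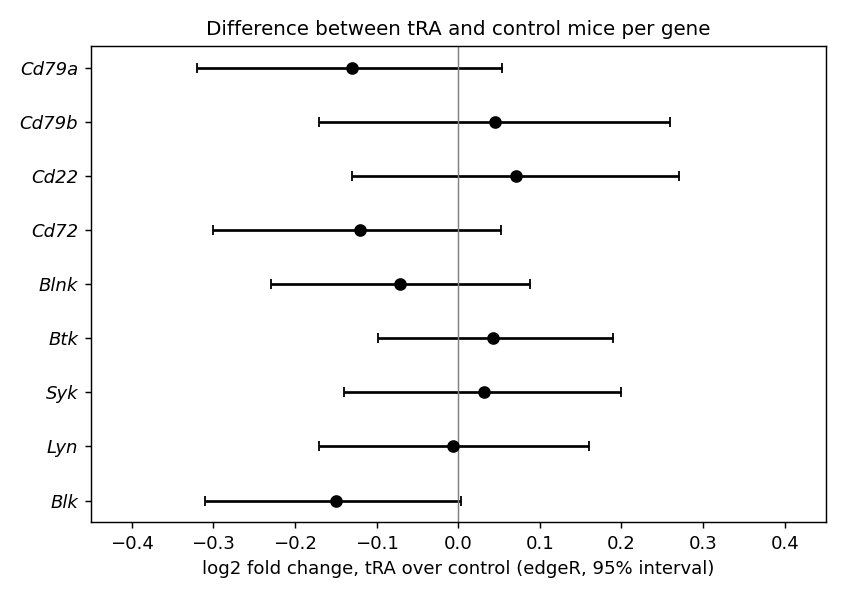
Log2 fold change of tRA over control for each of the 9 genes (horizontal axis), as points with 95% intervals worked out from the edgeR test. Each interval includes 0, and the point estimates run from -0.15 for Blk to 0.071 for Cd22.

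Levels were compared between genes as TMM CPM per kb of merged exon length, averaged over the 8 mice. Cd79a was highest at 915, followed by Cd79b at 497 and Cd22 at 227, and the ranges of these 3 genes over mice did not overlap. Blk at 116, Cd72 at 113 and Syk at 109 formed a close group, in which Blk was above Cd72 in 6 of 8 mice and Cd72 above Syk in 6 of 8 mice. Lyn at 55.1, Btk at 51.3 and Blnk at 44.2 were lowest, with ranges that overlapped between neighbours. The transcripts of the receptor's own signalling chains were thus the most abundant per length, above those of the kinases and the adaptor in each of the 8 mice.

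How the members varied together was described by 36 correlations of log2 TMM CPM over the 8 mice, which share depth and cell makeup within each library. Pearson's r was positive in 25 pairs and negative in 11 pairs, with a median of 0.24. Cd79a and Cd72 were the closest pair, with r = 0.90 (exact permutation p = 0.00107, adjusted over 36 pairs 0.0384) and Spearman's rho = 0.90 (exact permutation p = 0.00456, adjusted 0.0869). The r of this pair was 0.81 without the 2 mice farthest from the median of Cd79a, control mouse 1 and tRA mouse 4, and 0.85 after centring each group on its mean. It was the only pair of the 36 with an adjusted p under 0.05, and 0 pairs reached this with RLE normalization, with library size alone, and in 7 of the 8 sets of mice with 1 left out. Without control mouse 2 there were 2 such pairs.

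The paired chains did not pass the adjustment either. For Cd79a and Cd79b, r was 0.24 (exact permutation p = 0.571, adjusted 0.803) and rho was 0.43 (exact permutation p = 0.299, adjusted 0.598), and r was 0.19 without control mouse 1 and tRA mouse 4 and 0.46 after centring each group on its mean. By Pearson's r the most negative pair was Cd22 and Cd72, with r = -0.70 (exact permutation p = 0.0583, adjusted 0.268) and rho = -0.76 (exact permutation p = 0.0368, adjusted 0.189), and r was -0.59 without tRA mouse 3 and control mouse 2. By rho the lowest pair was Cd22 and Blnk, and without those 2 mice r was lowest for Cd22 and Blk. None of these other pairs passed the adjustment.

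Among 16454 tested genes with a symbol, the 5 with a pattern most like Cd79a over the 8 mice were Chchd10, Rfc3, Gm8909, Rraga and H2-DMb2, with Pearson's r from 0.970 to 0.984. For Cd79b the 5 most alike were Rps4l, Gm48604, Wdr92, Hepacam2 and Camk2n1, with r from 0.950 to 0.984. The lists share no gene, which the low r between Cd79a and Cd79b (0.241) already entails. Cd72 was number 120 in the order for Cd79a, and Btk was number 499 in the order for Cd79b. Rps4l and Camk2n1 averaged 0.791 and 0.709 TMM CPM, so few counts stand behind their patterns.

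The antigen-binding part of the receptor is the surface immunoglobulin. None of its 6 constant region genes on the list passed FDR under 0.1 with edgeR, with 2 positive and 4 negative log2 fold changes and a median of -0.17, which was -0.099 with the length and GC offset and -0.084 without tRA mice 3 and 4. In each list the gene with the highest mean TMM CPM, a scale that favours long transcripts, is named as the gene with the most counts, which is no order of levels per length. Ighm, the heavy chain of IgM and the gene with the most counts here, was 9699, 9705, 10048 and 11727 TMM CPM in control mice and 7598, 9757, 9700 and 8427 TMM CPM in tRA mice. Control mice 3 and 4 were above every tRA mouse, and tRA mice 1 and 4 were below every control mouse. Igkc, the kappa light chain, was 5145, 4998, 5209 and 6098 TMM CPM in control mice and 4509, 4996, 4633 and 4832 TMM CPM in tRA mice. The groups of Igkc did not overlap, although control mouse 2 and tRA mouse 2 were nearly level, and its log2 fold change was -0.18 (edgeR adjusted p = 0.78), or -0.11 without control mouse 4 and -0.11 with the length and GC offset.

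The summed level of the 6 immunoglobulin genes was 16932 to 19760 TMM CPM in the control mice and 14251 to 16920 TMM CPM in the tRA mice. With library size alone the sums overlapped, at 16704 to 19778 CPM in control mice and 13823 to 17426 CPM in tRA mice, so the gap seen with TMM depended on the scaling. The sum was not tested. Plasma cells also carry transcripts of immunoglobulin genes. Of the 8 plasma cell markers, 0 passed FDR under 0.1, 3 were positive and 5 negative, and Sdc1, Tnfrsf17 and Mzb1 were lower in all tRA mice than in all control mice. The plasma cell marker with the most counts was Jchain, at 574, 537, 604 and 722 TMM CPM in control mice and 367, 541, 428 and 436 TMM CPM in tRA mice. The summed plasma cell markers were 839, 823, 898 and 1026 TMM CPM in control mice and 619, 826, 716 and 702 TMM CPM in tRA mice. These sums overlapped through control mouse 2 and tRA mouse 2. With library size alone they did not, although control mouse 1 and tRA mouse 2 were all but equal, at 825 CPM each. The part of plasma cells in the immunoglobulin levels was not tested.

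The ratio of Ighm to Ighd, the heavy chains of IgM and IgD, was taken per kb after their values had been seen. It was 6.92, 6.41, 7.47 and 9.28 in control mice and 5.36, 6.70, 5.77 and 5.28 in tRA mice. In 3 of the 4 tRA mice the ratio was below that of every control mouse, and tRA mouse 2 lay within the control range. No test was made of it.

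Coreceptors and inhibitory partners of the receptor, 14 genes with Cr2, Cd81 and Fcgr2b among them, had 0 calls with edgeR. Their log2 fold changes were positive for 9 and negative for 5. Their median was 0.019, or 0.0013 without tRA mouse 2, 0.039 without tRA mouse 1 and 0.045 with library size alone. Their sum was 5310, 5097, 5074 and 4801 TMM CPM in control mice and 5038, 5193, 5121 and 4993 TMM CPM in tRA mice. The tRA sums all lay within the control range. With library size alone, tRA mouse 3 was above every control mouse, at 5371 CPM against at most 5227 CPM. In the signalosome downstream of SYK, 0 of 22 genes were called, with 11 positive and 11 negative values and a median of -0.0037. That median was positive in some other fits, such as 0.027 with library size alone, 0.015 without control mouse 2 and 0.0097 without tRA mouse 1. Pik3cd, a catalytic subunit of phosphoinositide 3-kinase, had the most counts in the list, with group means of 818 ± 47.7 and 833 ± 30.1 TMM CPM (SD, n = 4). Hcls1, a cytoskeletal substrate of SYK, was the gene of that list without overlap, at 379.5 to 405 TMM CPM in control mice and 358 to 379.4 TMM CPM in tRA mice, so that control mouse 3 and tRA mouse 2 were all but equal. Its log2 fold change was -0.085 (edgeR adjusted p = 0.804), or -0.018 with the length and GC offset, and the groups overlapped with library size alone.

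Of 17 regulators and relatives of the Src and Syk family kinases, 0 were called, 8 were positive and 9 negative. Ptprc, the phosphatase CD45 that removes the inhibitory phosphate of Src family kinases, had the most counts, at 1712 ± 186 TMM CPM in control mice and 1842 ± 193 TMM CPM in tRA mice (SD, n = 4). Tec, a kinase related to BTK, was 110, 132, 132 and 113 TMM CPM in control mice and 106, 109, 98.8 and 86.7 TMM CPM in tRA mice. All 4 tRA mice were below all 4 control mice, with a log2 fold change of -0.28 (edgeR adjusted p = 0.757), or -0.18 without tRA mice 3 and 4, and the groups overlapped with library size alone. Of 14 B cell transcription factors, 0 were called, 8 were positive and 6 negative, and Ets1 had the most counts, at 1306 ± 116 and 1408 ± 60.6 TMM CPM (SD, n = 4).

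Genes that antigen receptor signalling induces within minutes to hours, which many other stimuli and cell handling also induce, are given next. Of these 16 early genes, 0 passed FDR under 0.1 with edgeR and 1, Egr1, did so with DESeq2 (adjusted p = 0.0792, against a range up to 1 over the 20 alternatives, of which 1 called it). The log2 fold changes were negative for 15 and positive for 1, with a median of -0.36. That median rested on tRA mice 1, 3 and 4, being -0.81 without mouse 1, -0.12 without mouse 3, -0.17 without mouse 4 and 0.18 without mice 3 and 4. It was -0.61 with limma-voom and -0.60 with the replicate block. Their summed level was 14025, 12962, 12076 and 11478 TMM CPM in control mice and 14195, 10543, 4551 and 5599 TMM CPM in tRA mice. In tRA mice 3 and 4 the sum was far below that of the other 6 mice, while tRA mouse 1 had the highest value of all. The spread within the tRA group (SD 4488) exceeded that of the control group (SD 1109). With library size alone, control mouse 1 was highest, at 13805 CPM against 13769 CPM in tRA mouse 1.

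Egr1 encodes a zinc finger factor that is induced early after receptor ligation. It stood at 754, 909, 952 and 731 TMM CPM in control mice and 624, 623, 378 and 302 TMM CPM in tRA mice. All tRA mice were below all control mice, with mice 3 and 4 lowest (log2 fold change -0.80, edgeR adjusted p = 0.757, and -0.42 without those 2 mice). Fosb, a subunit of the AP-1 factor, also did not overlap, at 2851 to 3841 TMM CPM in control mice and 1255 to 2842 TMM CPM in tRA mice (log2 fold change -0.71, edgeR adjusted p = 0.757, and -0.34 without tRA mice 3 and 4). Fos, another AP-1 subunit, had the most counts in the list, with 3337, 3230, 3302 and 2866 TMM CPM in control mice and 3563, 2762, 1117 and 1420 TMM CPM in tRA mice. Without tRA mice 3 and 4, 0 of the 9 receptor members were called, and the signs of Cd22, Btk, Syk and Lyn turned.

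**Figure D3:**
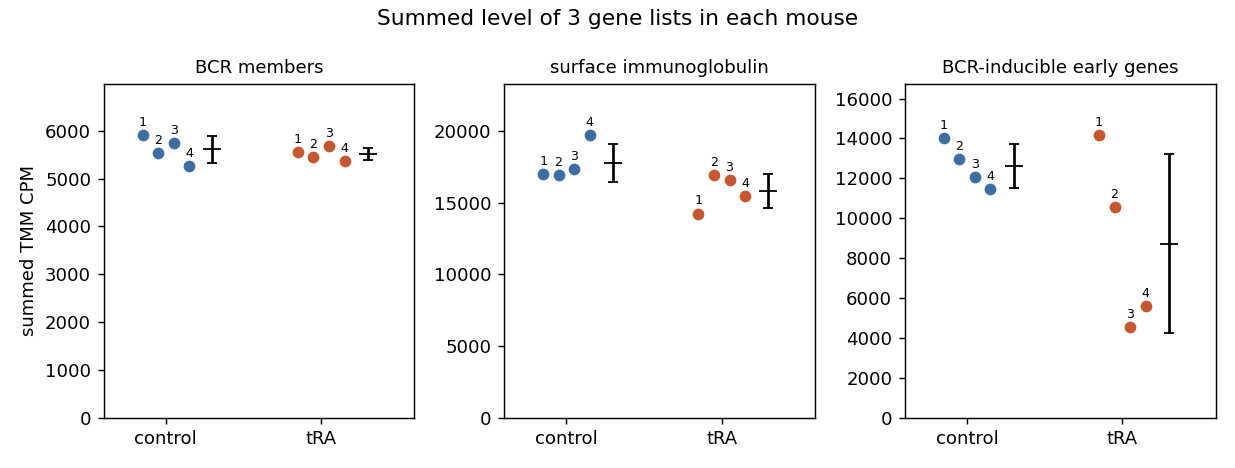
Summed TMM CPM (vertical axes from 0) of the 9 receptor members, the 6 surface immunoglobulin genes and the 16 early genes in each mouse. Points are mice numbered by replicate, and bars give the mean ± SD of each group (n = 4). The members lay between 5255 and 5920 in all 8 mice, whereas tRA mice 3 and 4 had 4551 and 5599 for the early genes.

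The cell makeup of the samples was read from marker lists. Of 12 B cell markers, 0 were called, 5 were positive and 7 negative. Their median log2 fold change was -0.015, or 0.028 without control mouse 1, -0.062 without control mouse 3 and 0.015 with library size alone. Their sum was 7940, 7399, 6877 and 6617 TMM CPM in control mice and 7238, 7435, 7128 and 7189 TMM CPM in tRA mice. The tRA mice lay within the control range. T cell markers summed to 1995, 2092, 2210 and 2380 TMM CPM in control mice and 2448, 2341, 2336 and 2435 TMM CPM in tRA mice, with the most counts from Tcf7. Of these 12, 0 were called and 11 were positive. Their median log2 fold change was 0.12 (0.072 without control mouse 1 and 0.19 without control mouse 4). The sums of tRA mice 1 and 4 were above every control mouse. With library size alone this held for tRA mice 3 and 4 (2450 and 2487 CPM). The sum of tRA mouse 1 was then 2375 CPM, below the 2382 CPM of control mouse 4.

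Neutrophil markers, 12 genes, had 0 calls with edgeR and 4 with DESeq2 (Camp, Ngp, Ltf and Lcn2, the last named after its values were seen), with 11 negative log2 fold changes and a median of -0.67. Their sum was 945, 1247, 1227 and 1072 TMM CPM in control mice and 588, 631, 591 and 966 TMM CPM in tRA mice. The log2 fold changes of the list ran from -1.23 to 0.39, so the fall was not shared by all its genes. Camp, Ngp, Ltf and Elane, granule protein genes of immature neutrophils, were lower in all tRA mice than in all control mice, and Ngp had the most counts in the list. Elane was low throughout, at 2.92 to 4.04 TMM CPM in control mice and 0.55 to 2.63 TMM CPM in tRA mice. Camp had the lowest adjusted p of any gene on the lists (log2 fold change -1.23, edgeR adjusted p = 0.135). Over the 20 alternatives its adjusted p ran from 3.38e-10 with DESeq2 to 0.652, and 5 of them called it, among them edgeR without tRA mouse 4 (adjusted p = 0.000176). Without that mouse edgeR also called Ngp (adjusted p = 0.0525) and Ltf (adjusted p = 0.08). Syk, Lyn and Btk are also transcribed in myeloid cells, and the part of these cells in their levels was not tested.

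Other lists gave 0 calls each with edgeR. The summed NK cell markers were 320 to 481 TMM CPM in control mice and 347 to 392 TMM CPM in tRA mice, with the most counts from Gzma and Klra8 not tested. Monocyte and macrophage markers, with the most counts from Lyz2, summed to 974 to 1543 TMM CPM and 1078 to 1404 TMM CPM. Dendritic cell markers, with the most counts from Itgax, summed to 198 to 281 TMM CPM and 181 to 246 TMM CPM. Erythroid markers, with the most counts from Hbb-bs and Ahsp not found in the annotation, ranged from 527 to 2484 TMM CPM in control mice and from 631 to 3722 TMM CPM in tRA mice. Platelet markers, with the most counts from Itga2b and Ppbp and Treml1 not tested, summed to 10.6 to 12.8 TMM CPM and 10.5 to 12.8 TMM CPM.

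Retinoic acid receptors bind paired copies of a short motif, so the motif AGGTCA was looked for on both strands in RefSeq promoters of GRCm38.p6, from 250 bases before to 50 bases after each gene start. The table held 7 promoters of 6 members, and Cd79b, Lyn and Blk had no entry. A match was found in 1 of the 7, that of Blnk, and in 5340 of 32851 promoters of the same length (16.3%). It is shown because it is the member match. The stretch is given 5′ to 3′ on the minus strand at chr19:40994251-40994280, with the motif in capitals as its reverse complement. The motif lies 47 bases before the gene start that defines this RefSeq promoter. In GENCODE M21 it lies inside the 5′ untranslated part of exon 1.
Blnk: ccctggatcacaTGACCTcgtagaaacatg
The match is a description of these letters and shows no binding. The level of Blnk did not pass the test between groups, as given above.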

How the data were processed

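The authors sequenced total splenocyte RNA (Illumina TruSeq v2, HiSeq2500) and deposited raw counts per Ensembl gene for each mouse. The study's methods name ea-utils, Btrim, Bowtie2, Tophat2 and HTSeq, while the submitters' processing notes name STAR 2.5.2b, featureCounts 1.5.1, DESeq2 1.26.0 and GRCm38. Which of these made the counts, and the use of strand, are not given in the sources used here. A deposited comparison by the authors, with fold changes and p-values, was not used.

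The test of these counts used edgeR 4.0.16 under R 4.3.3 (filterByExpr with a minimum of 10 counts, TMM, the quasi-likelihood test with Benjamini-Hochberg adjustment over all genes tested). Standard errors and 95% intervals were worked out from the log2 fold change and F statistic of the edgeR test, with t quantiles. Other fits used limma 3.58.1 and DESeq2 1.42.0, and the rest ran in Python 3.11.15 with scipy 1.17.1 and matplotlib 3.10.9. GENCODE M21 matched 51633 of 51826 identifiers. Fits were tested on simulated data. Members and lists were chosen with earlier results of these data known. Named genes were the 9 members, in other lists the genes called, the genes without overlap and the gene with the highest mean TMM CPM (not scaled for length), and the 5 genes most like Cd79a and Cd79b. One gene that this rule names is not reported here. As alternatives, limma-voom and DESeq2, scaling by RLE or by library size alone, other filters, immunoglobulin genes left out, a B cell marker covariate, the replicate number as a block, a length and GC offset, this offset with the block, and the omission of each mouse were run. A fit without tRA mice 3 and 4 was chosen after seeing the data.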

Additional observations from a re-analysis of the deposited data

Results flagged for a closer look

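A mouse far from the other 3 of its group was seen in 7 of 130 groups of values examined, where chance gives about 1 in 20. Among receptor values, the ratio of Cd79a to Cd79b per kb was 1.70 in control mouse 3 against 2.05 to 2.09 in the other control mice. The summed surface immunoglobulin genes were 19760 TMM CPM in control mouse 4 and 16932 to 17338 in the other control mice. Ptprc was 1433 TMM CPM in control mouse 3 and 1792 to 1826 in the others. In tRA mouse 4, Camp was 42.72 TMM CPM against 25.17 to 26.92 in the other tRA mice, the summed neutrophil markers were 966.4 against 588.1 to 630.8, and the summed NK cell markers were 346.6 against 386.1 to 392.4. Mitochondrial genes took 6.335% of the counts in tRA mouse 2 and 5.497% to 5.589% in the other tRA mice.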

How the results depend on the processing

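The 9 members were called 0 times under the 20 alternatives, with a lowest adjusted p of 0.364 (Blk), and Cd79a, Cd72, Blnk and Blk kept a negative log2 fold change in all of them, of varying size: -0.18 to -0.049 for Cd79a, -0.16 to -0.065 for Cd72, -0.11 to -0.027 for Blnk and -0.18 to -0.10 for Blk. Cd79a was -0.052 with the length and GC offset and -0.084 without control mouse 1, and Blnk was -0.027 without control mouse 3. Signs turned in 9 of 180 member values. With library size alone Lyn was 0.022. Without tRA mice 3 and 4, chosen after seeing the data, Cd22 was -0.025, Btk -0.019, Syk -0.0031, Lyn 0.027 and Rps4l -0.25. With each mouse left out in turn, log2 fold changes ranged from -0.023 to 0.12 for Cd79b, 0.013 to 0.13 for Cd22, 0.01 to 0.071 for Btk, -0.0062 to 0.07 for Syk, -0.041 to 0.051 for Lyn, -0.0065 to 0.052 for Pik3cd, -0.25 to 0.053 for Gzma, -0.04 to 0.26 for Lyz2, -0.16 to 0.068 for Itgax, -0.16 to 0.93 for Hbb-bs, -0.34 to 0.52 for Rps4l, -0.0073 to 0.17 for Gm48604, -0.018 to 0.1 for Wdr92, -0.024 to 0.21 for Hepacam2 and -0.083 to 0.6 for Camk2n1. Hepacam2 was -0.0089 with the length and GC offset. Over all genes, edgeR called 0, DESeq2 27, edgeR with no filter on low counts 6, limma-voom 1, the fit without tRA mice 3 and 4 called 3, and leaving out 1 mouse gave 0 to 3, the 3 without tRA mouse 4. The number of member pairs with an adjusted p under 0.05 was 1, and it was 0 with RLE normalization and with library size alone and 0 to 2 with 1 mouse left out, the 2 without control mouse 2. The cause of these differences was not tested. With the replicate block, 0 genes and 0 members were called, and the median log2 fold change of the members was -0.0038. That median ran from -0.041 to 0.051 with 1 mouse left out and was 0.022 with library size alone. The sample titles do not say whether mice with the same number shared anything else. Their correlations were 0.157, -0.0229, -0.014 and 0.259, and not every mouse correlated best with its own number.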
